A study of Mus musculus with 6 samples.

Results

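The genes examined here are those for the protein parts of the cytosolic ribosome, in mouse hepatocytes made senescent by loss of Mdm2 and in healthy hepatocytes. Poly(A) RNA was sequenced from hepatocytes isolated by collagenase perfusion and density centrifugation from 6 mice aged 10 to 12 weeks. The senescent group was 3 AhCre+Mdm2fl/fl mice and the healthy group was 3 AhCre- mice, whose Mdm2 alleles the labels do not give. Mice of both groups received β-naphthoflavone at 20 mg/kg by intraperitoneal injection, over 48 hours, in corn oil. This agent drives Cre from the Ah promoter, so Cre acts where and when that promoter responds, and the agent itself is common to both groups. A gene was taken as a member when it was protein-coding and its symbol was Rpl or Rps followed by a digit, or Rpsa, Rplp0, Rplp1 or Rplp2. S6 kinases, Rps27l, names with -ps and genes with under 10 counts over the 6 libraries were left out. This gave 82 genes of 32061 in the table, 49 of the large and 33 of the small subunit. Rpl10l, Rpl39l and Rpl3l fell below the minimum with 0, 2 and 1 counts. All 82 passed the filter on low counts and were among the 12949 genes tested. The members include Rpl7l1 and Rps19bp1, which the symbol rule admits although neither is a core ribosomal protein. Levels are CPM, a gene's counts scaled to a fixed library total, after trimmed-mean (TMM) scaling unless another scale is named.

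Each ribosome holds a single copy of nearly every ribosomal protein, and the acidic stalk proteins are the main exception. The mRNAs of these proteins are short and very abundant, and most begin with a run of pyrimidines, the 5′ terminal oligopyrimidine tract, through which mTORC1 controls how strongly they are translated. Several ribosomal proteins that are not built into ribosomes bind Mdm2, the ubiquitin ligase that holds p53 down, and the 5S particle of Rpl5, Rpl11 and 5S rRNA is the best known of these. Hepatocytes export large amounts of plasma protein and carry many ribosomes.

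The starts of the genes that the results turn on are shown first, because a pyrimidine tract at the start is known for this class of genes. RefSeq promoters of GRCm38.p6, running from 250 bases before to 50 bases after the annotated start, were matched for 62 of the 82 genes. The longest run of C or T on the sense strand was sought from 20 bases before to 50 bases after that start, and a run that meets the edge of this window is cut there. A run of at least 8 was present in 45 of the 62 members (72.6%), against 24.3% of 16514 promoters searched the same way. Capitals mark the run in the 30 bases shown for 3 genes that rose, 4 that fell, the 5S particle gene Rpl11 and Rpl4, which was not called. Rplp1, the deepest fall, had no matched promoter, and Rpsa, with a run of 7, is not shown.
Rps19, chr7:24884696-24884725, plus strand: gcgcggggccacggggccgggCTTTCTggc
Rpl9, chr5:65391383-65391412, minus strand: acgaaagacgTTCTCTCTTTgccccatcta
Rpl19, chr11:98026944-98026973, plus strand: gcggcccacaagCTCTTTCCTTTCgctgct
Rps2, chr17:24720083-24720112, plus strand: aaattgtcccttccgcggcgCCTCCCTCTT
Rps18, chr17:33955648-33955677, minus strand: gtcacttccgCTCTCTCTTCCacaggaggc
Rpl41, chr10:128549119-128549148, minus strand: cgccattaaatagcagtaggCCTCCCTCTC
Rps24, chr14:24490752-24490781, plus strand: catcatggtgagTCTCCTCgggctctcagc
Rpl11, chr4:136053358-136053387, minus strand: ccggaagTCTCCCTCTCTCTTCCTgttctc
Rpl4, chr9:64173405-64173434, plus strand: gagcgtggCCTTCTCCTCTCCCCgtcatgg
The run was 6 bases long in Rps19, 10 in Rpl9 and 12 in Rpl19, against 10 in Rps2, 11 in Rps18, 10 in Rpl41 and 7 in Rps24, so Rps19 and Rps24 have no run of 8. Relative to the annotated start, it began at base 42 in Rps19, 30 in Rpl9, 33 in Rpl19, 41 in Rps2 and Rpl41, 12 in Rps24 and -2 in Rps18. Those of Rps2 and Rpl41 meet the window's edge, so their lengths are minima. Whether these runs begin the mRNA was not tested. Over the matched members its median length was 10 bases in those that rose, 10 in those that fell and 10.5 in those not called. The ETS core CCGGAAG, searched on both strands over the 300 bases, was present in 22 of the 62 members (35.5%), against 12.4% of all promoters. AAGATGGC, the core of the YY1 motif, was present in 5 (8.06%), against 3.29%, and TATAAA in 6 (9.68%), against 12.9%. A match describes these letters only.

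Most ribosomal protein mRNAs were lower in senescent than in healthy hepatocytes after TMM scaling, by similar amounts from gene to gene. Of the 82 genes, 57 fell, 3 rose (Rps19, Rpl9 and Rpl19) and 22 were not called, in edgeR's quasi-likelihood test with Benjamini-Hochberg adjustment at 0.05 over all genes tested. The background is 20.7% of all tested genes called lower, 20.4% called higher and 41.1% called in either direction. The log2 fold change was negative in 77 genes, with a median of -0.47 (quartiles -0.58 and -0.36), beside a median of 0.01 over all tested genes. The large subunit had 36 lower and 2 higher of 49 (median -0.49), and the small subunit had 21 lower and 1 higher of 33 (median -0.44). The senescent and healthy libraries did not overlap for 70 of the 82 genes, 66 of them lower in senescent cells, beside 54% of all tested genes without overlap and 27.2% without overlap and lower. How many genes pass as lower depends on the scale. Scaled to total library size alone, 9 were lower (Rplp1, Rps2, Rps18, Rpl41, Rps24, Rpl35a, Rpl31, Rps21 and Rpl36) and 5 higher (Rps19, Rpl9, Rpl19, Rps10 and Rpl22l1), beside 9.92% and 37.5% of all genes. The median of all genes then stood at 0.33 and that of the members at -0.16. A change of scale shifts all genes by nearly the same amount. The members therefore lay 0.48 (log2) below the median gene on either scale. TMM is used below. On total counts no member beyond those just named was called, so every other call of a member given below is lost on that scale. The number of calls also moved when a library was left out: 21 genes were lower without senescent replicate 3, 25 without senescent replicate 2 and 30 without healthy replicate 2. Calls can be lost in these fits because they hold fewer libraries. The share of all genes called is not given here for any fit that leaves a library out. The members' median in them was -0.40, -0.44 and -0.39, in that order, beside 0.04, 0.05 and 0.01 over all tested genes.

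**Figure D1:**
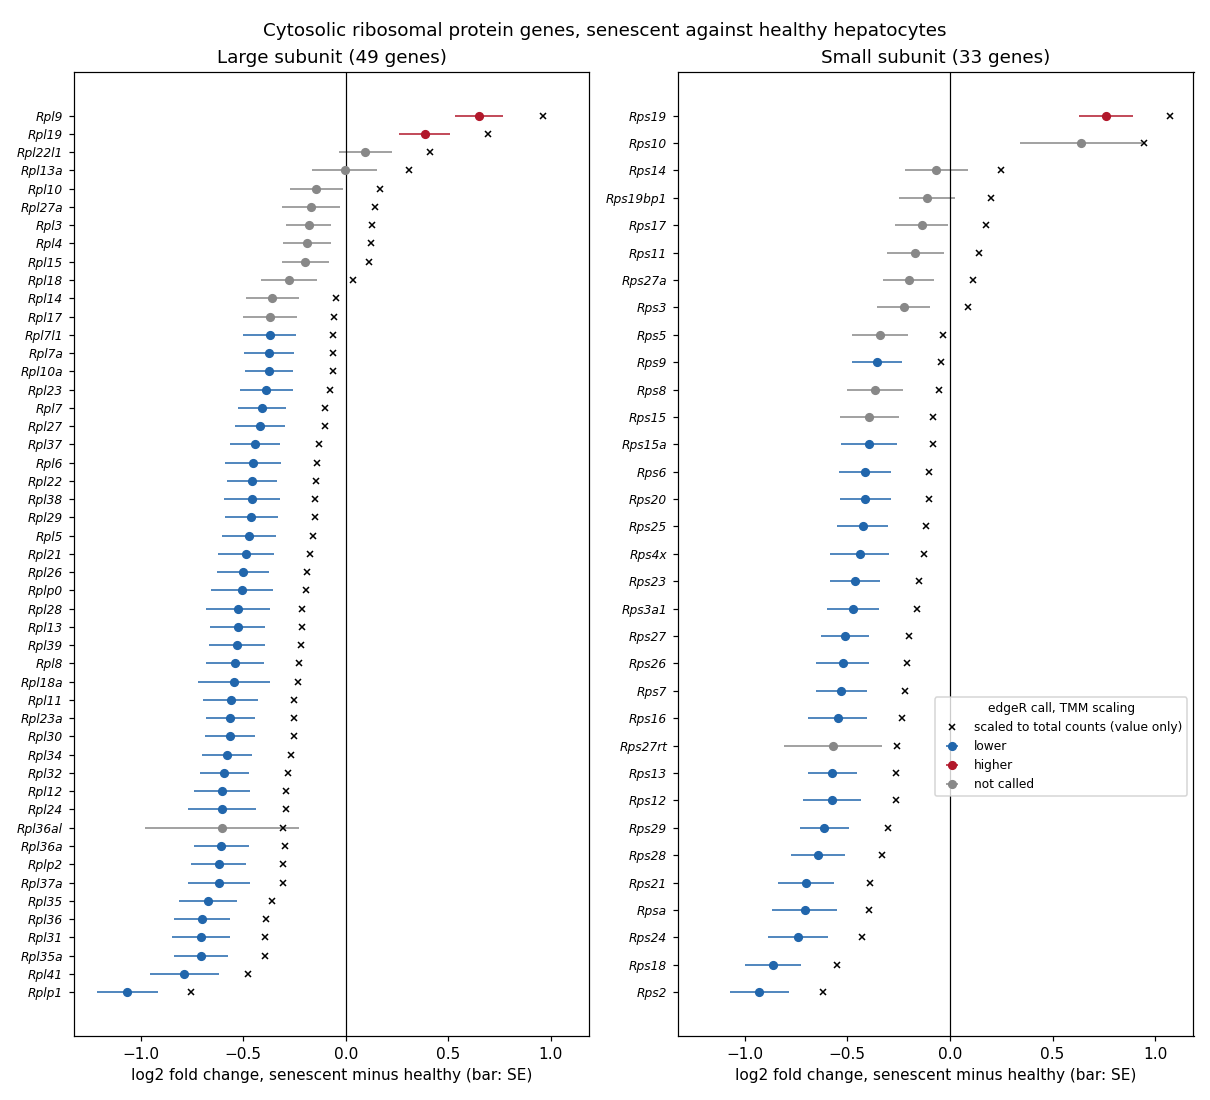
Log2 fold change of each of the 82 genes, senescent minus healthy, by subunit (x axis, bar = SE; genes down the page by size). Coloured points give TMM scaling and its edgeR call, with 57 lower, 3 higher and 22 not called; crosses give the same genes scaled to total counts, where 9 were lower and 5 higher and several signs turn.

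Together the 82 genes held 1.39%, 1.27% and 1.29% of all counts in senescent libraries 1, 2 and 3, against 1.44%, 1.57% and 1.24% in healthy libraries 1, 2 and 3. These shares overlap, with healthy replicate 3 the lowest of the 6. After TMM scaling the sums were 12373, 11892 and 11228 CPM in senescent libraries, against 16089, 17612 and 13687 CPM in healthy libraries, and did not overlap. The log2 ratio of the group means was -0.11 on total counts and -0.42 on TMM. On total counts it was -0.0049 without healthy replicate 2, -0.061 without senescent replicate 2 and -0.17 without healthy replicate 3. After TMM scaling, healthy replicate 3 was the lowest healthy library for 77 of the 82 genes. Senescent replicate 3 was the lowest senescent library for 72. On this scale the genes therefore move together between mice of 1 group as well. On total counts the lowest senescent share was that of replicate 2 (1.27%), beside 1.29% in replicate 3. The summed large subunit stood at 1.48, 1.51 and 1.505 times the small subunit in senescent libraries, against 1.42, 1.43 and 1.46 times in healthy libraries. These ratios did not overlap, and their log2 difference was 0.06. CPM is a share of the library, and in whole-cell RNA fewer cells of a type and less RNA per cell cannot be told apart.

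**Figure D2:**
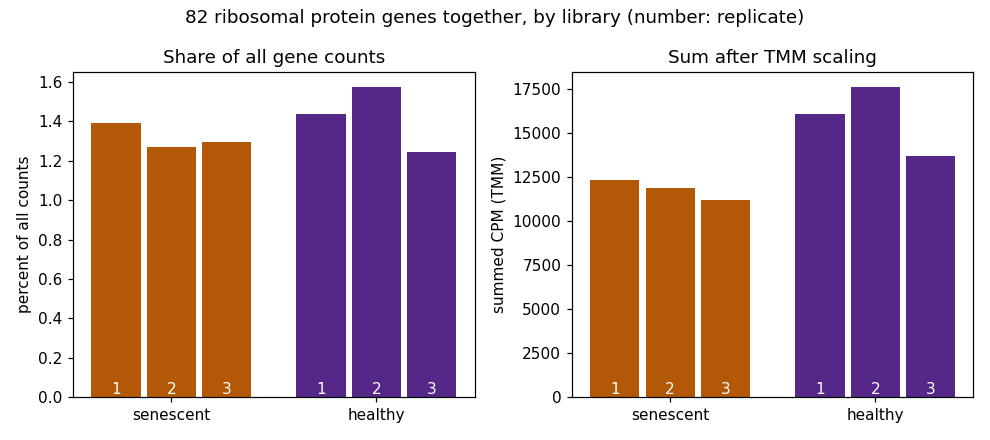
The 82 genes summed in each library, as percent of all gene counts (left) and as CPM after TMM scaling (right), senescent and healthy, numbered by replicate. On total counts the groups overlap (1.27% to 1.39% against 1.24% to 1.57%); after TMM scaling every senescent bar is below every healthy bar.

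Library depth was 28799392 to 33267299 counts, and no pair of libraries agreed within counting noise. Mdm2 stood at 463 to 501 CPM in senescent libraries and 19.0 to 22.7 CPM in healthy libraries. This count pools all exons of the gene and so does not check the deletion. Cdkn1a, the p53 target that encodes the cell-cycle inhibitor p21, stood at 653 to 773 CPM in senescent libraries and 21.3 to 54.3 CPM in healthy libraries. Hepatocyte genes dominated every library, and Alb held 5.51% to 5.96% of senescent and 7.26% to 8.87% of healthy counts. Of the hepatocyte markers, 6 of 8 were lower, and on total counts 4 were lower and 1 higher. Of the markers of other cells, 2 of 12 macrophage, 2 of 9 endothelial, 5 of 9 stellate, 2 of 4 cholangiocyte and 2 of 2 neutrophil genes tested were higher, while 0 of 1 lymphocyte and 0 of 5 erythroid genes were called at an adjusted 0.05. On total counts 10 of the 12 macrophage, 6 of the 9 endothelial, 6 of the 9 stellate, 2 of the 4 cholangiocyte, 2 of the 2 neutrophil and 1 of 1 lymphocyte genes were higher, and 0 of the 5 erythroid genes were called. Summed levels in senescent against healthy libraries were 242 to 488 against 98.2 to 267 CPM for macrophage, 119 to 155 against 100.2 to 125 CPM for endothelial, 27.5 to 42.0 against 11.3 to 18.4 CPM for stellate and 11.4 to 16.3 against 4.70 to 8.05 CPM for cholangiocyte genes. Lymphocyte, neutrophil and erythroid sums were 4.40 to 8.89, 2.03 to 2.68 and 11.5 to 18.6 CPM in senescent libraries, against 1.63 to 4.78, 0.195 to 0.842 and 11.3 to 12.1 CPM in healthy libraries. Acta2 was at 0 in every healthy library. The part of these cells in the ribosomal protein values was not tested.

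Against the run of the family, 3 genes rose. Rps19, a small-subunit head protein whose human gene is mutated in Diamond-Blackfan anaemia (chromosome 7, 24884371 to 24889806, GRCm38), stood at 195, 187 and 179 CPM in senescent libraries, against 107, 128 and 96.0 CPM in healthy libraries. Its log2 fold change was 0.76 ± 0.13 (SE, n = 3 each, edgeR adjusted p = 0.0027). Rpl9, a large-subunit protein near the base of the stalk (chromosome 5, 65388364 to 65391444), stood at 341, 359 and 333 CPM in senescent libraries, against 226, 232 and 201 CPM in healthy libraries. The groups were far apart, with a log2 fold change of 0.65 ± 0.12 (edgeR adjusted p = 0.0032). Rpl19, a large-subunit protein that takes part in the bridge to the small subunit (chromosome 11, 98026710 to 98030492), had 258, 272 and 244 CPM in senescent libraries, against 200.5, 218 and 174 CPM in healthy libraries. Its rise was the smallest of the 3, at 0.38 ± 0.13 (edgeR adjusted p = 0.039), and the call was lost when any library other than healthy replicate 2 was left out (adjusted p up to 0.094). Rps19 and Rpl9 kept their call in all 20 alternative fits, with log2 fold changes of 0.67 to 1.09 and 0.59 to 0.96. With total counts the values were 1.07 for Rps19, 0.96 for Rpl9 and 0.69 for Rpl19.

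The 6 deepest falls were in Rplp1, Rps2, Rps18, Rpl41, Rps24 and Rpsa. Rplp1, an acidic stalk protein that pairs with Rplp2 and helps recruit translation factors (chromosome 9, 61913284 to 61914542), fell to 186, 168 and 156 CPM in senescent libraries, against 341, 416 and 308 CPM in healthy libraries. The log2 fold change was -1.06 ± 0.15 (edgeR adjusted p = 8.9e-04), and every senescent library lay far below every healthy library. Rps2, which lines the mRNA entry of the small subunit (chromosome 17, 24718116 to 24721929), fell to 421, 381 and 356 CPM in senescent libraries, against 808, 761 and 637 CPM in healthy libraries (-0.93 ± 0.14, edgeR adjusted p = 0.0015). Rps18, in the head of the small subunit near the peptidyl-tRNA (chromosome 17, 33951999 to 33956001), had 173, 166 and 152 CPM in senescent libraries, against 289.9, 342 and 261 CPM in healthy libraries (-0.86 ± 0.14, edgeR adjusted p = 0.0017). Rps24, another gene of Diamond-Blackfan anaemia in humans (chromosome 14, 24487125 to 24496959), had 109, 103 and 101 CPM in senescent libraries, against 188, 196 and 139 CPM in healthy libraries (-0.74 ± 0.15, edgeR adjusted p = 0.0047). These 4 genes, with Rps19 and Rpl9, are the 6 members that kept their call in all 20 alternative fits, total counts included. Rpl41, the shortest ribosomal protein (chromosome 10, 128548114 to 128549305), had 157, 135 and 128 CPM in senescent libraries, against 259.6, 278 and 188 CPM in healthy libraries (-0.79 ± 0.17, edgeR adjusted p = 0.0069). Rpsa, the small-subunit protein also known as the laminin receptor (chromosome 9, 120127689 to 120132369), had 282, 255 and 236 CPM in senescent libraries, against 454, 470.2 and 337 CPM in healthy libraries (-0.71 ± 0.16, edgeR adjusted p = 0.0085; on total counts -0.40, adjusted p = 0.061).

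**Figure D3:**
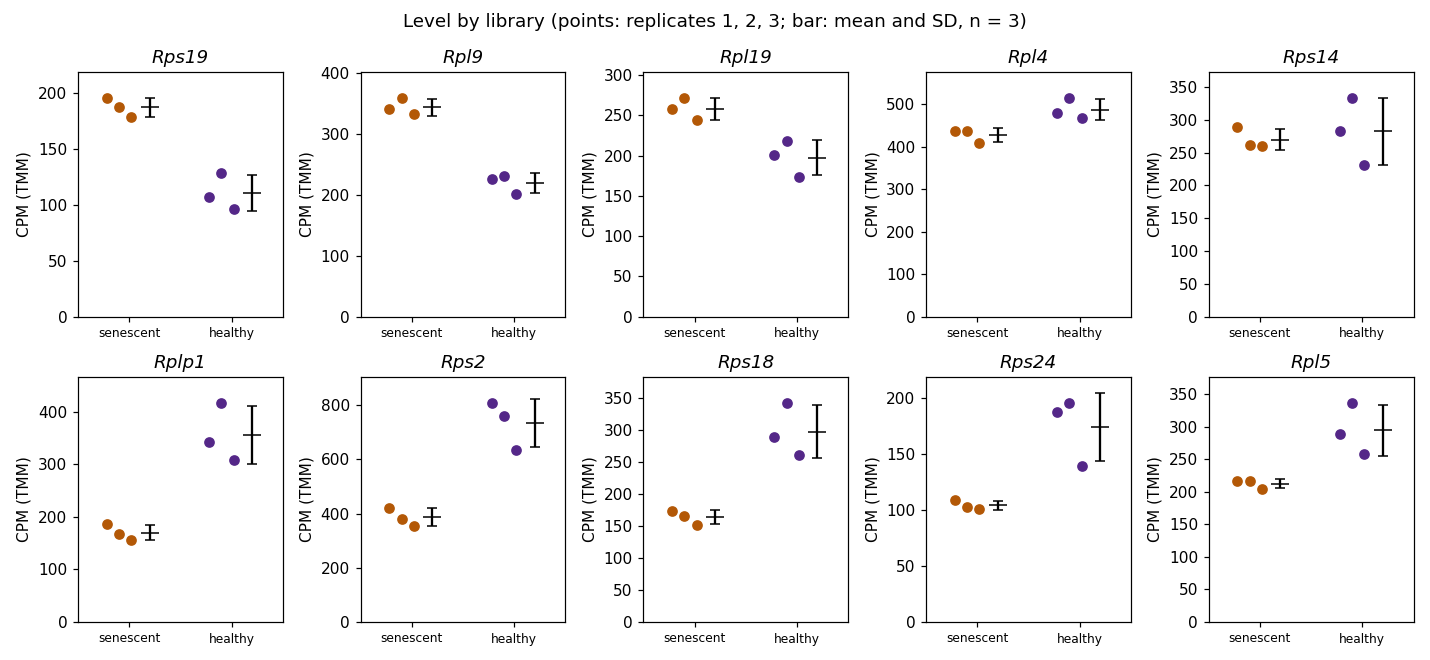
CPM after TMM scaling by library for 10 genes, senescent left of healthy (points = libraries, bar = mean and SD, n = 3). Rps19, Rpl9 and Rpl19 are higher and Rplp1, Rps2, Rps18, Rps24 and Rpl5 lower in all senescent libraries; Rps14 overlaps between the groups, and the sign of Rpl4 and Rps14 turns with total counts.

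The fold changes were also taken relative to the summed count of the members themselves, a scale chosen after the data were seen. That sum includes the gene under test. Relative to it, 6 genes were higher, namely Rps19 (log2 1.18), Rpl9 (1.06), Rps10 (1.06), Rpl19 (0.80), Rpl22l1 (0.52) and Rpl13a (0.42). Only Rplp1 (-0.65), Rps2 (-0.52) and Rps18 (-0.45) were lower, and 73 were not called, beside 37.1% of all genes higher and 7.22% lower on this scale. Rps19, Rpl9, Rpl19 and Rplp1 kept these calls whichever library was left out. Without senescent replicate 2 or 3, 3 genes were higher and 1 lower in each case, and without healthy replicate 3, 5 were higher and 6 lower. Rps2 was no longer called without senescent replicate 2 or 3 (edgeR adjusted p = 0.069 and 0.078), nor Rps18 without any of the senescent replicates (adjusted p up to 0.1).

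By mean CPM over all 6 libraries the most abundant members were Rps2, Rpl4, Rpl10, Rplp0, Rpsa and Rpl7a. In senescent cells alone Rpl4 led with a mean of 428 CPM, against 386 CPM for Rps2, and Rpl9 (344 CPM) stood above Rplp0 (282 CPM). Rpl4, which lines the exit tunnel, had 437, 438 and 409 CPM in senescent libraries, against 480.5, 515 and 468 CPM in healthy libraries. The groups did not overlap, but the difference was not called (-0.19 ± 0.12, edgeR adjusted p = 0.23; 0.12 on total counts). Rpl10, which joins the large subunit late and is needed for subunit joining, had 359, 394 and 341 CPM in senescent libraries, against 378, 443 and 388 CPM in healthy libraries, and its groups overlapped (edgeR adjusted p = 0.4; 0.17 on total counts). Rpl7a had 269, 258 and 253 CPM in senescent libraries, against 338, 369.7 and 304 CPM in healthy libraries, a fall of 0.38 ± 0.12 on the log2 scale (edgeR adjusted p = 0.038; -0.06 on total counts, not called). The call of Rpl7a was lost when any library other than healthy replicate 3 was left out (adjusted p up to 0.15). Per length of transcript the order of the levels was largely shared, with a Spearman correlation of 0.92 between the groups over the members. The leading genes differed. Rpl9, Rpl10, Rps14 and Rps2 led in senescent cells, at 506, 457, 452 and 387 CPM per kb. Rps2, Rplp1, Rpl41 and Rps18 led in healthy cells, at 737, 712, 553 and 531 CPM per kb. Across the 76 genes with a mean of at least 20 CPM the levels spanned 27.3 to 506 CPM per kb (median 192) in senescent cells and 36.3 to 737 CPM per kb (median 263) in healthy cells. Rps20, whose annotated principal transcript is the longest of the members, was the lowest of these in both groups.

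The stalk, which binds the translation GTPases, was lower in all 3 of its members. Beside Rplp1, Rplp0, the stalk base, had 299, 283 and 265 CPM in senescent libraries, against 382, 478 and 343 CPM in healthy libraries (-0.51 ± 0.15, edgeR adjusted p = 0.027). Rplp2 had 93.0, 86.1 and 80.8 CPM in senescent libraries, against 139, 148 and 112 CPM in healthy libraries (-0.62 ± 0.13, edgeR adjusted p = 0.0074). On total counts only Rplp1 of these was called. Rplp0 was not called without healthy replicate 2 or any of the senescent replicates (adjusted p up to 0.12).

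Of the 10 ribosomal proteins listed as binding Mdm2, 7 fell, 0 rose and 3 were not called (median -0.45). This is close to the whole family, with 57 of 82 lower (median -0.47), beside 20.7% of all tested genes. On total counts 0 of the 10 were called. Both protein partners of 5S rRNA were among those lower. Rpl5 had 217, 216 and 204 CPM in senescent libraries, against 289, 336 and 258 CPM in healthy libraries (-0.47 ± 0.13, edgeR adjusted p = 0.021). Rpl11 had 178, 166 and 153 CPM in senescent libraries, against 258, 265 and 210.1 CPM in healthy libraries (-0.56 ± 0.13, edgeR adjusted p = 0.011). Neither overlapped between the groups. Rpl26, which also binds p53 mRNA, fell by 0.50, Rpl23 fell by 0.39, Rps7 fell by 0.53, Rps25 fell by 0.42 and Rps27 fell by 0.51 on the log2 scale, none with overlap between the groups. Without senescent replicate 3 none of these 7 calls held, with adjusted p from 0.051 for Rps7 to 0.17 for Rpl23. Rps14 had 289, 261 and 259.9 CPM in senescent libraries, against 283, 333 and 231 CPM in healthy libraries, which overlap (-0.07 ± 0.15, edgeR adjusted p = 0.75; 0.25 on total counts). Rps3, at the mRNA entry, had -0.22 ± 0.13 and Rps27a, made as a fusion with ubiquitin, had -0.20 ± 0.12 in log2 fold change, neither called (edgeR adjusted p = 0.2 and 0.23).

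Of 5 paralogs tested, 1 was lower (Rpl7l1) and 4 were not called. Rpl22, a core large-subunit gene, had 88.4, 81.1 and 80.6 CPM in senescent libraries, against 104, 131 and 109 CPM in healthy libraries (-0.46 ± 0.12, edgeR adjusted p = 0.018). Its paralog Rpl22l1 had 27.9, 29.3 and 32.0 CPM in senescent libraries, against 30.8, 29.0 and 23.6 CPM in healthy libraries (0.10 ± 0.13, edgeR adjusted p = 0.58; 0.41 on total counts, adjusted p = 0.033). Per length, Rpl22l1 stood at 53.8 CPM per kb in senescent and 50.4 CPM per kb in healthy cells, and Rpl22 at 176 and 241 CPM per kb in senescent and healthy cells. The difference between the 2 fold changes was not tested. Rpl7l1, a nucleolar relative of Rpl7, had 47.5, 53.6 and 47.1 CPM in senescent libraries, against 71.3, 54.7 and 65.7 CPM in healthy libraries, and lay just inside the threshold (-0.37 ± 0.13, edgeR adjusted p = 0.049). Rpl14 lay just outside it, at 142, 137 and 135 CPM in senescent libraries, against 177, 201 and 152 CPM in healthy libraries (-0.36 ± 0.13, edgeR adjusted p = 0.054). Rpl7, Rpl39, Rpl36a, Rps4x and Rps27 fell by 0.41, 0.53, 0.61, 0.44 and 0.51 on the log2 scale, while Rpl3, near the peptidyl transferase centre, had -0.18 ± 0.11 and was not called. On total counts the same 5 genes had -0.10, -0.22, -0.30, -0.13 and -0.20, none called. Without senescent replicate 3 the calls of Rpl7, Rpl7l1, Rpl39, Rps4x, Rps27 and Rpl22 were lost (adjusted p from 0.057 to 0.20), and without healthy replicate 3 Rpl14 was called lower (adjusted p = 0.017). Rps19bp1, at 11.2, 10.1 and 11.5 CPM in senescent libraries and 13.4, 11.6 and 10.5 CPM in healthy libraries, overlapped between the groups.

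Ribosomal protein genes have many processed copies in the mouse genome, and the values of some members depend on where reads were placed. Of the 50-base windows of the members' principal transcripts, a median of 61.7% per gene also occur in another annotated transcript. The sources used here do not say how reads with several placements were counted. Rows named as copies held counts equal to 9.04% to 9.34% of the members' in senescent and 9.01% to 9.49% in healthy libraries. Of 89 such copies tested, 42 were lower, 7 higher and 40 not called (median -0.55). Copies of the genes that rose were themselves called higher in 4 of 6 cases for Rps19, 2 of 2 for Rpl9 and 1 of 3 for Rpl19, and none of these were lower. Copies of Rps2 were lower in 4 of 5 cases, and the copy of Rps18 tested was lower. Rps19, Rpl9 and Rpl19 share 53.6%, 86.7% and 79.3% of their windows with other transcripts. Rps19-ps1 had 6.14, 5.42 and 6.22 CPM in senescent libraries, and Rps19-ps2 had 6.14, 5.45 and 6.22 CPM. Copies are therefore not separate observations of a gene. Rps10, singled out after its values were seen, had 1.53, 2.01 and 1.65 CPM in senescent libraries, against 0.842, 1.48 and 1.03 CPM in healthy libraries, with 273 counts in all against 6701 in its 2 named copies. Alone its log2 fold change was 0.64 ± 0.30 (edgeR adjusted p = 0.12), and with the copies added it was -0.48 ± 0.15 (edgeR adjusted p = 0.035), so its direction turns. Rpl17, also singled out after its values were seen, was not called alone (-0.37, adjusted p = 0.054) and was lower with its copies (-0.39, edgeR adjusted p = 0.047). Rps27rt shares 91.1% of its windows with other transcripts. Rpl24, Rpl13a, Rpl36al and Rps10 each overlap another annotated gene on the same strand, by start and end only, and their exons were not compared. The low levels of these 5 are therefore uncertain. Rpl19, a gene that rose, and Rpl13 are not at low levels but also overlap another annotated gene on the same strand by start and end. Their exons were not compared either.

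Transcript length moves with the result. The members' principal transcripts have a median of 705 bases, against 2759 bases over tested genes. Across the 82 members the log2 fold change and the coding length had a Spearman correlation of 0.43 and, with that length on the log2 scale, a Pearson correlation of 0.26. With the length of the principal transcript these were 0.29 and 0.099. Both are descriptions of genes that share their libraries. In the shortest group by coding length (75 to 399 bases) 25 of 28 genes were lower, with a median of -0.59. In the middle group (405 to 564 bases) 16 of 27 were lower and 1 was higher, with a median of -0.46. In the longest group (576 to 1257 bases) 16 of 27 were lower and 2 higher, with a median of -0.38. Among 699 other genes whose transcripts are as long as the middle of the members (526 to 968 bases), 226 were lower (32.3%) and the median was -0.23. With the trend of fold change on principal transcript length removed, a fit added after the data were seen, 9 members were lower (Rplp1, Rps2, Rps18, Rps24, Rpsa, Rpl35, Rpl12, Rpl5 and Rps20) and 5 higher (Rps19, Rpl9, Rpl19, Rps10 and Rpl22l1), beside 20% and 18.4% of all genes. Within the healthy group, replicate 3 minus the mean of the others had a Spearman correlation of 0.36 with coding length over the same genes. The part of transcript length in the result was not tested further.

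**Figure D4:**
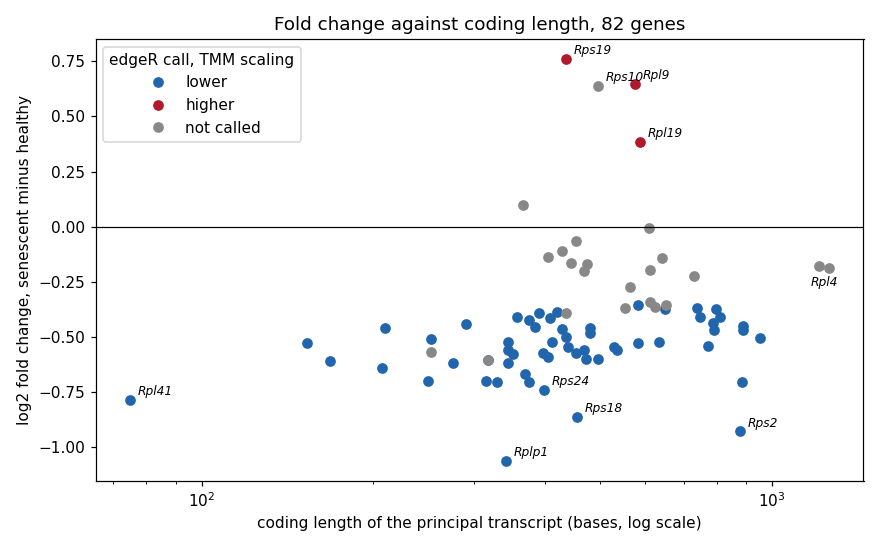
Log2 fold change after TMM scaling (y axis, senescent minus healthy) against coding length of the principal transcript in bases (x axis, log scale) for the 82 genes, coloured by edgeR call. The shortest genes, such as Rpl41, lie lowest on average (Spearman 0.43), while Rps19, Rpl9 and Rpl19 lie above 0, as they do on total counts.

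Other genes of the translation machinery give the setting. Fau, a small-subunit protein made as a fusion to a ubiquitin-like protein, had 126, 121 and 112 CPM in senescent libraries, against 206, 189 and 149 CPM in healthy libraries (-0.60 ± 0.14, edgeR adjusted p = 0.011). Rack1, a scaffold on the small subunit, was not called, and on total counts neither gene was. Of 15 other genes with known pyrimidine tracts, 6 were lower and 1 higher (median -0.32). Of these 15, 2 were lower without healthy replicate 2 or senescent replicate 1, 1 without senescent replicate 2 and 0 without senescent replicate 3. Eif3f, a subunit of initiation factor eIF3, fell by 0.49 and Nap1l1, a histone chaperone, fell by 0.48 on the log2 scale, while Hnrnpa1, a splicing regulator, rose by 0.36. On total counts 3 of the 15 were higher and 0 lower. Initiation factors had 4 of 30 higher and 4 lower (median 0.04), with Eif4g3 at 0.76 and Eif1 at -0.44, and on total counts 17 were higher and 0 lower. The initiation factors called lower numbered 2 without healthy replicate 1 or 2, 1 without senescent replicate 1 or 2 and 0 without senescent replicate 3. Those called higher numbered 2 without healthy replicate 1, and 1 without healthy replicate 2, senescent replicate 2 or senescent replicate 3. Of 4 elongation and termination genes, Eif5a fell by 0.56 and 3 were not called. Eif5a was not called without senescent replicate 2 or 3, nor on total counts (-0.25), where 2 of the 4 were higher and 0 lower.

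Ribosome biogenesis and RNA polymerase I genes had medians near 0. Of 43 ribosome biogenesis factors, 2 were higher and 5 lower (median -0.03), and on total counts 11 were higher and 2 lower. Without healthy replicate 3, 4 were higher. Brix1, which acts in large-subunit assembly, rose to 37.3, 57.7 and 53.6 CPM in senescent libraries, against 16.6, 15.3 and 21.8 CPM in healthy libraries (1.47 ± 0.20, edgeR adjusted p = 8.0e-04). Dkc1, the pseudouridine synthase of box H/ACA particles, had 7.11, 6.91 and 7.21 CPM in senescent libraries, against 15.7, 13.5 and 11.5 CPM in healthy libraries (-0.94 ± 0.15, edgeR adjusted p = 0.0016). Riok2, a small-subunit maturation kinase, rose by 0.71 and Nop10, a partner of Dkc1, fell by 0.76 on the log2 scale. Of 14 RNA polymerase I genes 3 were higher and 3 lower (median 0.04), and on total counts 6 were higher and 0 lower (median 0.35). Of these 14, 1 was higher without healthy replicate 2, healthy replicate 3 or senescent replicate 2. Those lower numbered 1 without healthy replicate 1 or senescent replicate 1 or 2, and 0 without healthy replicate 2 or senescent replicate 3. Rrn3, the initiation factor of that polymerase, had 32.3, 35.0 and 37.0 CPM in senescent libraries, against 11.6, 14.2 and 17.6 CPM in healthy libraries (1.26 ± 0.16, edgeR adjusted p = 5.6e-04). Of 13 mTORC1 genes 3 were lower and 0 higher, among them the inhibitors Deptor (-0.84) and Akt1s1 (-0.64), both also lower on total counts. On that scale 5 of the 13 were higher and 2 lower (median 0.14), and without healthy replicate 3, with TMM, 1 was higher and 5 lower. Of 4 Myc genes Mycl was lower (-1.10). Mitochondrial ribosomal proteins, which build a separate ribosome, had 35 of 77 lower and 2 higher (median -0.38), and 7 lower and 8 higher on total counts. Without senescent replicate 2, 16 were lower, and without senescent replicate 3, 12 were lower. No difference between these lists was tested.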

How the data were processed

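Reads of poly(A) libraries from 3 senescent and 3 healthy hepatocyte samples were counted per gene by the authors, and the deposited table holds whole-number counts for 32061 genes. Per the submitters' processing notes, cutadapt 1.16, STAR 2.7.1a, featureCounts and DESeq2 1.34.0 were among the tools and GRCm38 was the build. The sources used here do not give the annotation release, strand setting or treatment of multimapping reads. The column codes match the labels exactly for 5 of 6 samples; the remaining column, which differs by a letter, was taken as healthy replicate 2. Symbols, biotypes, lengths and coordinates came from GENCODE vM21 by gene ID (99.8% of rows).

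Counts were filtered with edgeR's filterByExpr (minimum 10 in a library, 15 in all), scaled by TMM and tested with the edgeR 4.0.16 quasi-likelihood test in R 4.3.3, after a check on simulated data; limma 3.58.1 and DESeq2 1.42.0 gave alternatives. Calls are Benjamini-Hochberg adjusted p under 0.05 over all genes tested. The members and gene lists were chosen with earlier results of these data known. Named genes were the 6 most abundant members, the 6 largest rises and falls among called members without overlap (3 rises existed), the listed groups with their core genes, the members nearest the threshold, and up to 2 called genes in each direction of every other list; genes named beyond these were chosen after their values were seen. No p is given for sums or ratios over members. Promoter sequences are from RefSeq (GRCm38.p6). With 3 mice per group, the p-values measure the spread between these mice. A gene of the lists is not reported here.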

Additional observations from a re-analysis of the deposited data

How the results depend on the processing

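The direction of the members' median held in every alternative run, while the number of genes called did not. With total library size, 9 members were lower (5 large, 4 small subunit) and 5 higher (2 small), with a median of -0.16; the signs of Rpl4 (0.12), Rpl10 (0.17), Rps3 (0.087), Rps14 (0.25), Rps27a (0.11), Rps19bp1 (0.20) and Rpl3 (0.13) turned. At an adjusted p under 0.01, 23 were lower (13 large, 10 small) and 1 large-subunit gene was higher, and without a filter on low counts 1 large-subunit gene was higher. With the exonic length trend removed, 20 were lower (12 large, 8 small), with a median of -0.25 beside 0.004 over all genes. The share of all genes called was not taken for this count or for the one at 0.01. With that trend removed, the signs of Rpl10 (0.035), Rps14 (0.072), Rps27rt (0.024) and Rps19bp1 (0.23) turned. With the principal transcript length trend removed, 9 were lower (4 large, 5 small) and 5 higher (2 small), with a median of -0.19; Rpl10 (0.12), Rps14 (0.28), Rps27a (0.13) and Rps19bp1 (0.14) turned. Scaled to the members' own sum, 6 were higher and 3 lower. DESeq2, limma-voom, RLE size factors in edgeR, TMM without the members, removal of the 50 most abundant or the mitochondrial genes, a mean of 1 CPM and added copies kept 54 to 57 of the 57 lower calls.

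Leaving out each library in turn gave 21 to 63 members lower (large subunit 13 to 38, small subunit 8 to 25), 2 to 3 higher (large subunit 1 to 2) and a median of -0.56 to -0.39; the large subunit had 23 lower without senescent replicate 1. The share of all genes called is not given for these fits. Rps14 ranged from -0.20 to 0.063 and Rpl22l1 from -0.014 to 0.17. The log2 ratio of the members' share of counts (-0.11) was -0.42 with TMM scaling, -0.42 with RLE size factors and -0.42 with TMM without the members, and the large to small subunit ratio (0.06) was 0.084 with copies added. With the replicate number as a block, 56 members were lower and 3 higher. Same-numbered samples correlated at 0.23, -0.17 and -0.04, and not every sample correlated best with its own number. With 3 libraries per group these values cannot show whether the numbers pair the mice, and the labels do not say that they do. The cause of these differences was not tested. The median standard error of a member's log2 fold change was 0.13, which limits what 3 mice per group can show for single genes. The length trends could not be applied to the share or the ratio and were not run for them.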
